A study of Homo sapiens with 8 samples.

Results

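Keratins and the cornification genes of stratified squamous epithelium were followed in KYSE850 cells, an established line from an esophageal squamous cell carcinoma. The group was set by gene name and comprised 50 of the 20249 genes with a symbol on the array, namely 18 keratins and further genes of the cornified envelope and of the S100, kallikrein and protease inhibitor families. All 50 had a probe, and 60 of the 42405 non-control probes belonged to them. The cells were transfected with a control siRNA (4 arrays) or with an siRNA that targets KHSRP (4 arrays), and mRNA was read on one-colour Agilent arrays. KHSRP is an RNA-binding protein that promotes the decay of AU-rich mRNAs and the maturation of some miRNAs. All cells were of this 1 line, and which of the KHSRP siRNAs went onto which array is not stated in the sources used here.

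Keratins are the intermediate filament proteins of epithelia, and each filament pairs a type I with a type II keratin. In the esophagus, basal cells carry KRT5 with KRT14 and KRT15, cells leaving the basal layer switch to KRT4 with KRT13, and wounded or proliferating epithelium adds KRT6, KRT16 and KRT17. KRT8, KRT18 and KRT19 are typical of simple epithelia. Cornification is the last step of squamous differentiation, in which transglutaminases crosslink involucrin, small proline-rich (SPRR) proteins and other precursors beneath the membrane, while kallikreins and their inhibitors control shedding.

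Many cornification genes are known targets of AP-1, and the motif searched for it was TGANTCA, a broad form that reads the same on both strands. N stands for any base, so TGAATCA and TGATTCA were counted beside TGAGTCA and TGACTCA. FLG and CRNN matched through TGAATCA only. A table of promoter sequences from RefSeq (GRCh38.p14) was searched over the 250 bases before each start. The promoters of 30 of the 50 genes were matched in it, and those of 20, among them 14 of the 18 keratins, were not analysed here. The motif was present for 12 of these 30 genes (40.0%), against 2200 of all 27305 genes in the table (8.06%). The 12 were IVL, FLG, SPRR1A, SPRR1B, SPRR2A, SPRR3, CRNN, SCEL, ECM1, EMP1, S100A2 and SERPINB13, so that 9 of the 12 cornified envelope genes with a sequence held it. A match is a description of the letters, not evidence of a bound site. The sequences printed here, with each match in capitals, are of EMP1 (the gene called between the siRNA groups), SPRR1B and ECM1 (cornified envelope genes with 2 matches each), and KRT5 (a basal keratin with none in this window), at chr12:13196476-13196725 (plus strand), chr1:153030953-153031202 (plus), chr1:150507859-150508108 (plus) and chr12:52520395-52520644 (minus).
EMP1: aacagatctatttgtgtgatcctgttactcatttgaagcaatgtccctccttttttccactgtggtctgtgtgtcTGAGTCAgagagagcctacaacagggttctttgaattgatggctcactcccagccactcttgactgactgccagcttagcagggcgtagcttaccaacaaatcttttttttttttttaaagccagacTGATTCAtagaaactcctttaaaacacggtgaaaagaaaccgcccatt
SPRR1B: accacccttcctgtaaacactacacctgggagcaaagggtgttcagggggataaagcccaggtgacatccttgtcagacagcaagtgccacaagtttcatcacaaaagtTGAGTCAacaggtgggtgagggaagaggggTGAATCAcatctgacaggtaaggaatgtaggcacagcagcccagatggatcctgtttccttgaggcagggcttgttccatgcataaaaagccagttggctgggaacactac
ECM1: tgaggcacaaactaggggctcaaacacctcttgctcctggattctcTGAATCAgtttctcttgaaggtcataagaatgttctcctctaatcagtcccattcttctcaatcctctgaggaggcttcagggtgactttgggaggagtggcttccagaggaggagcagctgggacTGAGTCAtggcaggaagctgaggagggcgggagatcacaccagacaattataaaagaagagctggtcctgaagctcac
KRT5: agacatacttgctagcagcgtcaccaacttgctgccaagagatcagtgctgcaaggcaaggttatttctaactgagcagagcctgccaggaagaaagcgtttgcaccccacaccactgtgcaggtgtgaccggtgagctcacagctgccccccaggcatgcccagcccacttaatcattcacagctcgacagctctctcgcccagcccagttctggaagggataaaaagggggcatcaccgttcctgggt
The EMP1 matches began 175 and 48 bases before the start, those of SPRR1B 141 and 111 bases before it, and those of ECM1 204 and 78 bases before it.

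Levels are log2 signals relative to the 75th percentile of the array, and a level of 0 marks a signal equal to that percentile. Testing was limited to probes that passed the scanner criterion of being well above background on each array of at least 1 group, which left 18761 probes, and a probe was called where its Benjamini-Hochberg adjusted p in limma was under 0.05. No spot was saturated, and each array had 45.1% to 49.4% of its probes well above background. The targeted gene was lowered: KHSRP stood at 6.03, 5.81, 6.39 and 6.08 on control siRNA arrays 1 to 4 and at 2.52, 2.58, 2.88 and 2.85 on KHSRP siRNA arrays 1 to 4. This left 9.66% of the control level (log2 fold change -3.37, limma adjusted p = 5.95e-05, exact permutation p = 0.0286, two-sided, the smallest that 4 against 4 arrays allow). The labels name the arrays of a group as replicates without saying that they came from separate cultures, so p-values measure only the spread between these arrays.

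The cell type was checked against markers. All 8 squamous markers (TP63, SOX2, DSG3, PKP1, PERP, CDH3, ITGB4 and COL17A1) were well above background on all 8 arrays. Of 10 columnar epithelium markers, 9 had a probe, of which CDX2 and MUC2 were well above background on every array, while 5 were so on none, and 6 of 7 fibroblast markers were so on none, the exception being COL1A1. Among 6 leukocyte markers, CD14 and CD68, which other cells also make, were well above background on every array and the other four on some. The summed linear signal of the squamous markers, with the 75th percentile as 1, ran from 63.0 to 99.98 on control arrays and from 84.6 to 130 on KHSRP siRNA arrays, and that of the columnar markers from 2.08 to 2.997 and from 2.39 to 3.75. That of the leukocyte markers ran from 1.33 to 4.45 and from 1.51 to 5.68.

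Of the 50 genes, 33 passed the filter and 17 did not. The keratins that passed were KRT5, KRT6A, KRT6B, KRT6C, KRT7, KRT8 and KRT80 of type II and all 9 type I genes, KRT10, KRT13, KRT14, KRT15, KRT16, KRT17, KRT18, KRT19 and KRT23. The keratins that did not pass were KRT4, the suprabasal partner of KRT13, and KRT1, a keratin of cornifying skin. Of the 14 cornified envelope proteins and transglutaminases, 7 passed (SPRR1A, SPRR1B, SPRR2A, SPRR2D, CNFN, ECM1 and TGM1) and 7 did not: IVL (involucrin), FLG (filaggrin), LCE3D, CRNN (cornulin), SCEL (sciellin), SPRR3 and TGM3. The filter was also failed by MAL, S100A7, S100A9, KLK5, KLK10, SERPINB3, SERPINB4 and SERPINB13. The best probes of 10 genes were well above background on no array (KRT1, KRT4, SPRR3, CRNN, SCEL, MAL, S100A7, KLK10, SERPINB4 and SERPINB13), and those of 30 genes were so on all 8.

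Between these lay 10 genes detected on some arrays. TGM3, a transglutaminase of the upper epithelium, was detected above background on 3 of the 4 KHSRP siRNA arrays and on 0 of the 4 control arrays. Of the 3 FLG probes, 1 was detected on 3 control and 0 KHSRP siRNA arrays, another on 1 array of each group, and the third on none. TGM3 read -4.38, -3.74, -4.49 and -4.29 on control arrays 1 to 4 and -2.46, -3.61, -4.03 and -2.44 on KHSRP siRNA arrays 1 to 4, so that its groups overlapped only through KHSRP siRNA array 3. Among the 10, KRT13, SPRR2A and SPRR1B passed the filter through 1 group only. KRT13 and SPRR2A were detected on 4 control and 3 KHSRP siRNA arrays each, and SPRR1B on 2 and 4. Of the rest, IVL and KLK5 were each detected on 0 control and 2 KHSRP siRNA arrays. S100A9 was detected on 2 and 1, LCE3D on 1 and 1, and SERPINB3 on 1 and 0. TGM3, FLG and these genes lay near background and were not tested.

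The comparison of the siRNA groups asked which of these mRNAs differ when KHSRP is lowered. EMP1, a tetraspan membrane protein of epithelia, was the 1 gene of 33 called, and it was higher with KHSRP siRNA. The background was 5.54% of all tested probes called, 1.92% higher and 3.62% lower. EMP1 read 3.92, 4.09, 4.03 and 3.88 on control arrays 1 to 4 and 4.51, 4.61, 4.62 and 4.51 on KHSRP siRNA arrays 1 to 4. Every KHSRP siRNA array lay above every control array, and EMP1 was the only 1 of the 33 whose groups did not overlap, against 14.8% of all tested probes.

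The log2 fold change of EMP1 was 0.58 (SE 0.10, limma adjusted p = 0.0142), a 1.497-fold higher signal. The difference was 0.55 on slide 1, which held replicates 1 and 2 of both groups, and 0.61 on slide 2. The call was lost when arrays were scaled to their medians (0.51, adjusted p = 0.156), when dim probes were kept in the test (adjusted p = 0.113), and without control siRNA replicate 1 (0.56, adjusted p = 0.0601). It also failed with the number in the scanner files as a block (adjusted p = 0.0846).

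No other tested gene was called, and no other had an unadjusted limma p under 0.05, beside 3677 of all 18761 tested probes. The median log2 fold change of the 33 was 0.016, beside 0.012 for all tested probes, with 17 genes positive and 16 negative. Values ran from -0.79 (KRT80, a keratin of late differentiation) to 0.93 (PI3, the elastase inhibitor elafin). The basal pair was near 0 with wide errors, at 0.051 (SE 0.83) for KRT5 and -0.13 (SE 0.81) for KRT14. With the series matrix number as a block, described further on, the SE was 0.082 for KRT5 and 0.11 for KRT14, and neither passed the test (limma adjusted p = 0.674 and 0.421). The pair differences of KRT5 ran from -0.18 to 0.16.

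**Figure D1:**
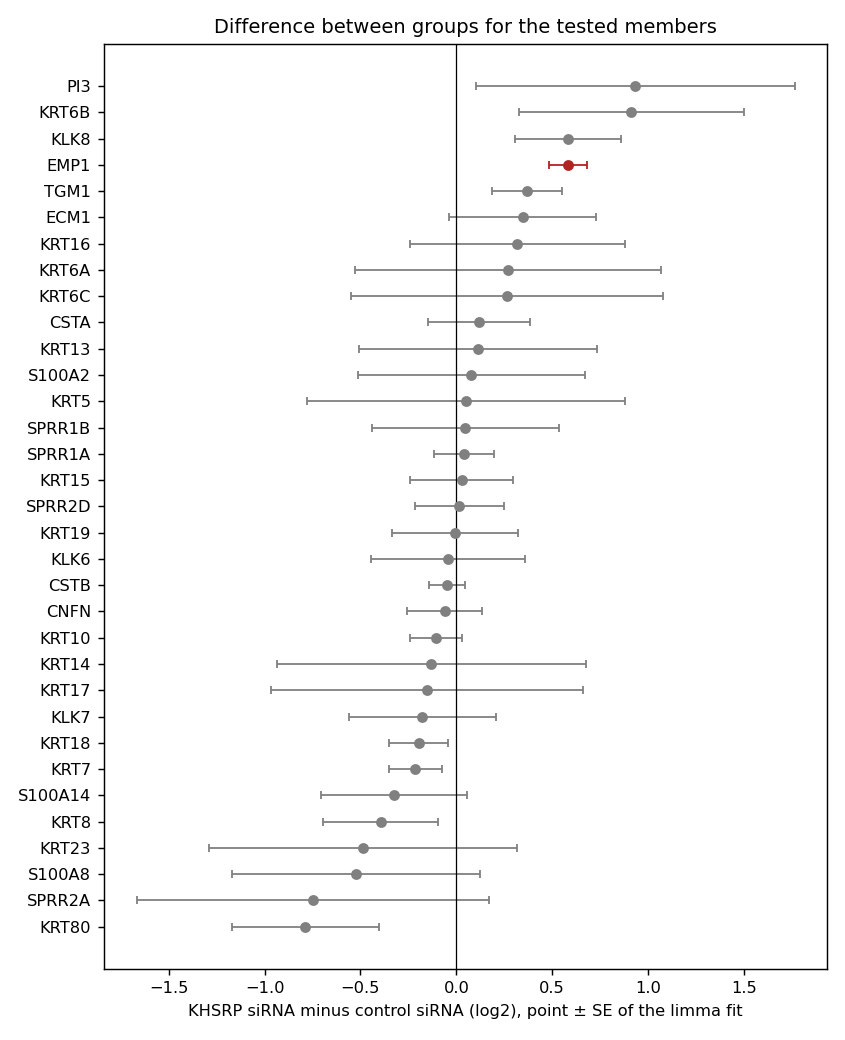
Each point gives the log2 difference, KHSRP siRNA minus control siRNA (x axis), for 1 of the 33 tested genes (y axis, ordered by value), and the bar is the standard error of the limma fit with 4 arrays a group. EMP1 (red) is the called gene at 0.58, most others (grey) have bars that reach 0, and the longest bar belongs to SPRR2A (SE 0.92).

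The width of these errors came from the spread inside each group. The SD within groups, pooled over both, had a median of 0.63 log2 units over the 33 genes and 0.26 over all tested probes. It exceeded the latter in 27 of the 33 genes and exceeded its 95th percentile (0.79) in 14. Genes with a small spread were CSTB (cystatin B, 0.048), EMP1 (0.079), KRT10 (0.17), KRT7 (0.18), KRT18 (0.21) and SPRR1A (0.21), whereas SPRR2A had the largest (1.54).

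The basal keratins varied together. KRT5 read 5.84, 4.30, 5.84 and 3.11 on control arrays 1 to 4 and 5.92, 4.46, 2.92 and 5.98 on KHSRP siRNA arrays 1 to 4, a range of 6.65-fold among controls and 8.35-fold among KHSRP siRNA arrays. KRT14, its type I partner, read 5.40, 3.81, 5.58 and 3.05, then 5.48, 3.73, 2.54 and 5.56. Both were high on control arrays 1 and 3 and on KHSRP siRNA arrays 1 and 4, and low on the other four.

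The wound-type keratins had the same 2 highest arrays in each group as KRT5. The order of KRT5 means only this here, and the ranks among those arrays or among the others could differ. KRT6A read 6.66, 5.0003, 6.74 and 4.16 on control arrays and 6.87, 5.40, 4.17 and 7.19 on KHSRP siRNA arrays, and KRT17 read 5.34, 3.80, 5.56 and 2.98, then 5.35, 3.59, 2.51 and 5.62. KRT6C ranged from 1.62 to 4.30 among controls and from 1.53 to 4.51 with KHSRP siRNA, and KRT16 from -1.79 to -0.22 and from -1.87 to 0.29. KRT15, a keratin of basal cells, had the same 2 highest arrays in each group over a smaller range, 2.82 to 3.61 and 2.72 to 3.68.

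The simple-epithelial keratins KRT8, KRT18 and KRT19 ran the other way, whereas KRT7, a type II keratin also found in simple epithelia, had neither order (1.92, 1.98, 2.07 and 1.66 on control arrays and 1.90, 1.53, 1.54 and 1.80 on KHSRP siRNA arrays). The brighter KRT8 probe read 5.14, 5.69, 4.68 and 5.59 on control arrays and 4.79, 5.11, 5.39 and 4.23 on KHSRP siRNA arrays. KRT19 read 8.22, 8.65, 7.85 and 9.13, then 8.26, 8.73, 8.99 and 7.83. KRT8 and KRT19 were lowest on control array 3 and KHSRP siRNA array 4, where KRT14 was highest. KRT18, the partner of KRT8, showed this order over a small range, 7.06 to 7.39 among controls and 6.72 to 7.29 with KHSRP siRNA. KRT23, another type I keratin, had it over 7.44-fold among controls and 8.35-fold with KHSRP siRNA.

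**Figure D2:**
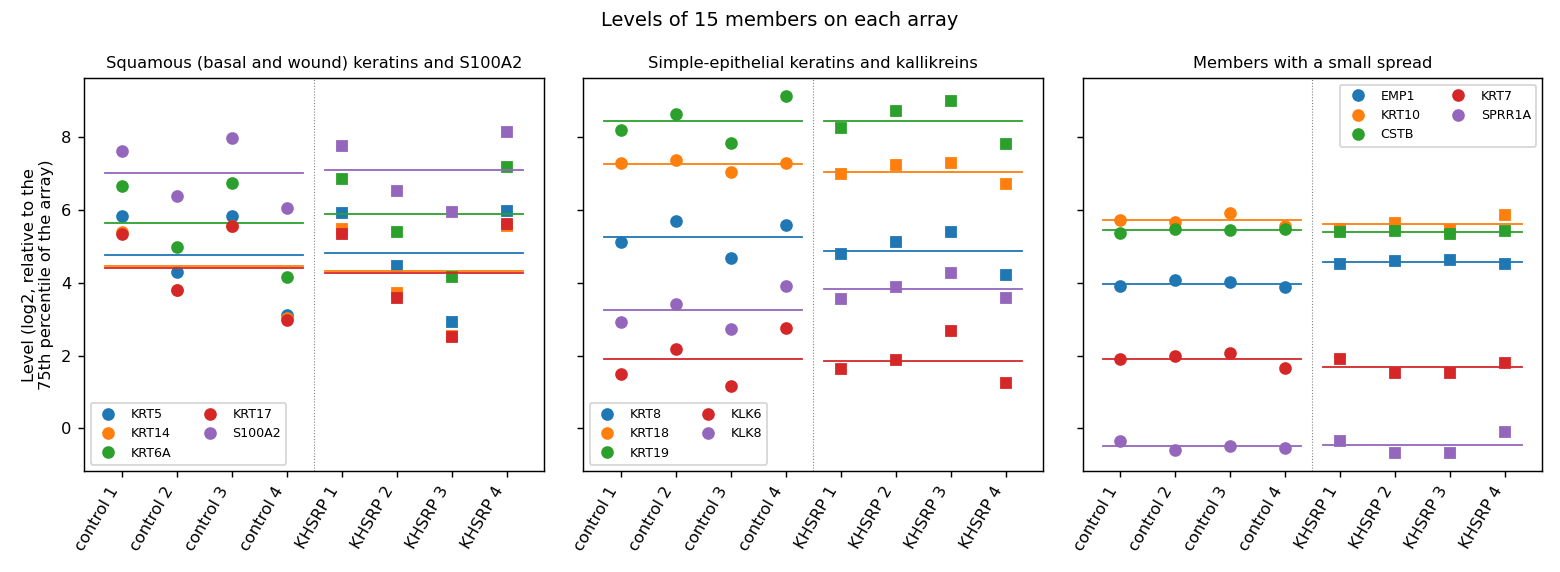
Levels (y axis, log2 relative to the 75th percentile of the array) of 15 genes on the 8 arrays (x axis), with circles for control siRNA, squares for KHSRP siRNA and lines for the group means. KRT5, KRT14, KRT6A, KRT17 and S100A2 (left) are high on control 1 and 3 and KHSRP 1 and 4, the keratins and kallikreins in the middle panel are low there, and EMP1 (right) differs between groups. Heights of different genes come from different probes and are not comparable.

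Outside the keratins, S100 proteins shared the order of KRT5. S100A2, a calcium-binding protein of basal keratinocytes, read 7.64, 6.38, 7.98 and 6.06 on control arrays and 7.76, 6.52, 5.94 and 8.16 on KHSRP siRNA arrays. S100A8, a calprotectin subunit, ranged 3.005-fold among controls and 6.24-fold with KHSRP siRNA, and S100A14 ranged 2.37-fold and 2.89-fold. The same arrays were thus highest for all 3 tested S100 genes.

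Kallikreins had the opposite order. KLK6 read 1.497, 2.20, 1.17 and 2.76 on control arrays and 1.62, 1.89, 2.68 and 1.25 on KHSRP siRNA arrays, and KLK7, the chymotryptic enzyme that cleaves corneodesmosomes, read -1.39, -0.69, -1.95 and -0.51, then -1.69, -0.86, -0.76 and -1.95. KLK8 ranged from 2.72 to 3.91 and from 3.57 to 4.26. All 3 were highest on control arrays 2 and 4 and on KHSRP siRNA arrays 2 and 3.

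Counted over the tested genes, 18 of 33, KRT5 among them, had the same 2 highest arrays in each group as KRT5, an order found in 17.3% of all tested probes. Another 7 (KRT8, KRT18, KRT19, KRT23, KLK6, KLK7 and KLK8) had the opposite 2 highest in each group, which 24.6% of all probes had, and 8 had neither (KRT7, KRT80, KRT10, CNFN, TGM1, EMP1, CSTA and CSTB). KRT5 was taken as the reference after its values were seen, so the counts are a description. Arrays, not genes, are the replicates here, and genes on 1 array share its RNA.

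**Figure D3:**
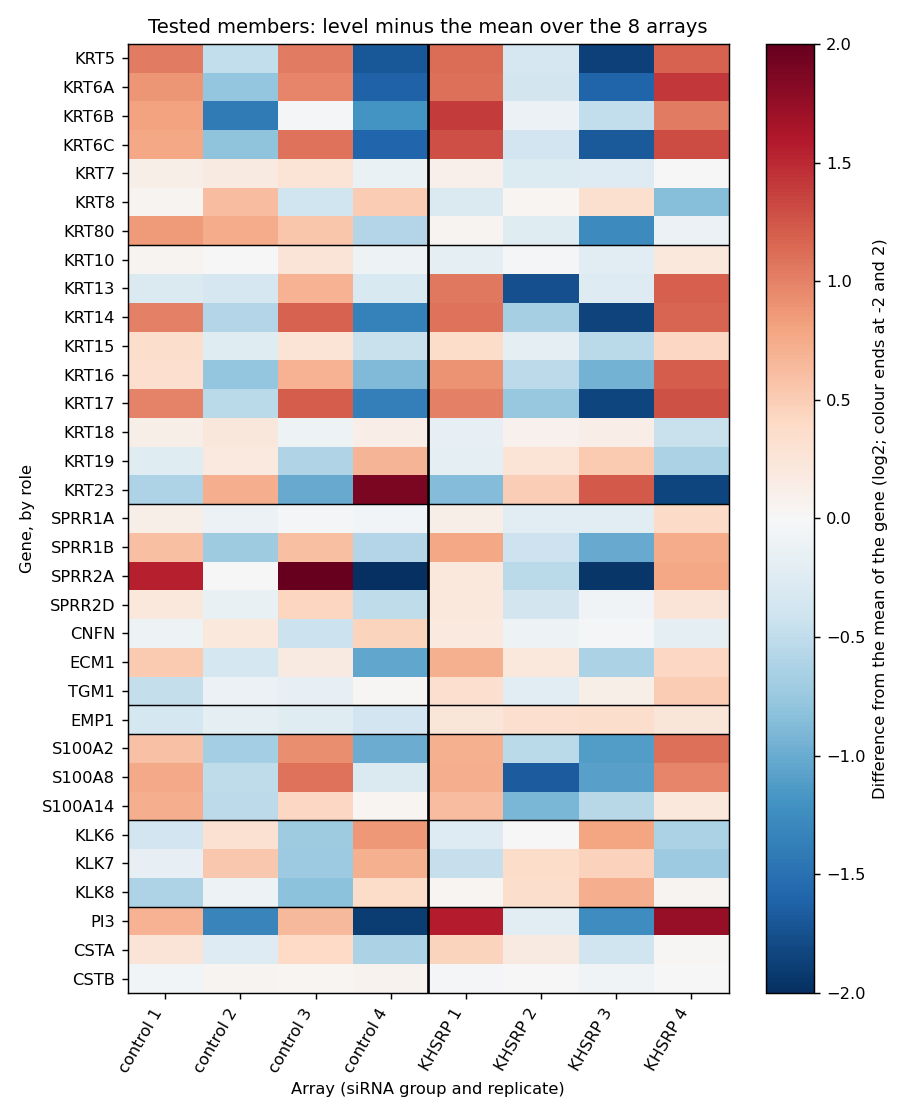
Colour gives the level minus the mean of the gene over the 8 arrays (log2, scale ending at -2 and 2) for the 33 tested genes (rows, in order of role: type II keratins, type I keratins, cornified envelope, EMP1, S100, kallikreins, inhibitors) on each array (columns, the black vertical line separating the siRNA groups). KRT5, KRT6A, KRT6C, KRT14, KRT17, S100A2 and PI3 are red on control 1 and 3 and KHSRP 1 and 4, KRT19, KRT23 and KLK6 are blue there, and CSTB is pale throughout.

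The squamous markers moved with these arrays as well: 7 of the 8, all but CDH3, had the order of KRT5. TP63, the transcription factor of the basal layer, read -1.26, -2.78, -0.37 and -2.57 on control arrays and -0.997, -3.21, -2.97 and -0.54 on KHSRP siRNA arrays. CDX2, an intestinal transcription factor, had the opposite order, with 0.69, 1.19, 0.73 and 1.26, then 1.01, 1.55, 1.60 and 0.91, and MUC2, the other tested columnar marker, had neither. Both tested leukocyte markers, CD14 and CD68, had the order of KRT5, and the 1 tested fibroblast marker, COL1A1, had the opposite one. Fewer cells of a type and less RNA per cell cannot be told apart in these bulk samples, and the part of these markers in the keratin values was not tested.

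The slides did not divide the arrays in this way, since each held high and low arrays of both groups. Between slides, adjusted for group, limma called 0 of the 33 genes and 0 of the 18761 probes (0%), with no member and 2142 probes at an unadjusted p under 0.05. The lowest adjusted p was 0.472 among the 33 genes (KRT80, -0.71 for slide 2 minus slide 1).

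Arrays of the 2 groups that carry the same number in the series matrix deviated together, and in that matrix the columns of KHSRP siRNA arrays 3 and 4 are exchanged against the scanner files. With these numbers as a block, which removes the shared variation, limma called 8 of the 33 genes, beside 30.1% of all tested probes. On the probe that stands for each gene, 5 of the 8 were higher with KHSRP siRNA (background 14.8%) and 3 lower (background 15.3%). The share called in total was thus no higher than that of all probes, and the share called higher was close to its background. With the numbers of the scanner files as the block, 0 of the 33 were called. The calls under the block therefore depend on which numbering is right. The series matrix numbers were taken as a block because of correlations in these same values, so the calls under it are a description.

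The higher genes were PI3, KRT6B, KLK8, EMP1 and ECM1. PI3 read 0.45, -1.57, 0.40 and -2.15 on control arrays and 1.32, -0.46, -1.497 and 1.499 on KHSRP siRNA arrays, and its log2 fold change of 0.93 had an SE of 0.83 without the block and 0.098 with it (limma adjusted p = 0.633 and 0.0032). Its groups overlapped widely, and the 4 pair differences ran from 0.65 to 1.102. Genes called under this block are mainly those whose pair differences agree in sign, so such agreement comes with the choice. KRT6B, a wound-type keratin, read -0.89, -3.12, -1.72 and -2.89, then -0.30, -1.82, -2.18 and -0.66, with pair differences of 0.58 to 1.30 (log2 fold change 0.91, adjusted p = 0.462 without the block and 0.0072 with it).

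KLK8, a serine protease of the stratum granulosum, read 2.93, 3.43, 2.72 and 3.91 on control arrays and 3.57, 3.89, 4.26 and 3.59 on KHSRP siRNA arrays (0.58, adjusted p = 0.298 and 0.0114 with the block). ECM1, an extracellular matrix protein linked to keratinocyte differentiation, read 0.21, -0.66, -0.13 and -1.34, then 0.41, -0.11, -0.95 and 0.10 (0.34, adjusted p = 0.722 and 0.0311). The pair differences of KLK8 and ECM1 agreed in sign too, which comes with their choice by the block. Without the block, leaving out 1 array moved ECM1 to between 0.058 (without control siRNA replicate 4) and 0.61 (without KHSRP siRNA replicate 3), PI3 to between 0.45 and 1.503 (without the same arrays), and KRT6B to between 0.59 (without control siRNA replicate 2) and 1.34 (without control siRNA replicate 1). Normexp background correction gave 0.33 for KRT6B, 0.22 for ECM1 and 0.58 for PI3. For EMP1 the block left the value at 0.58 and gave an adjusted p of 0.0047, with pair differences of 0.49 to 0.74.

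The lower probes were of the keratins KRT80, KRT23 and KRT8, of which KRT8 had a second probe that went the other way. KRT80 read 0.40, 0.29, 0.10 and -1.04 on control arrays and -0.40, -0.70, -1.73 and -0.58 on KHSRP siRNA arrays. Its pair differences ran from -0.99 to -0.68 (log2 fold change -0.79, limma adjusted p = 0.316 without the block and 0.0029 with it). KRT23 read -1.13, 0.22, -1.53 and 1.37, then -1.38, -0.027, 0.72 and -2.34 (-0.49, adjusted p = 0.832 and 0.0321). Normexp background correction gave -0.45 for KRT80, and without KHSRP siRNA replicate 3 it was -0.496. Without the block the direction of KRT23 turned when 1 array was left out, to 0.057 without control siRNA replicate 4 and to 0.041 without KHSRP siRNA replicate 4.

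**Figure D4:**
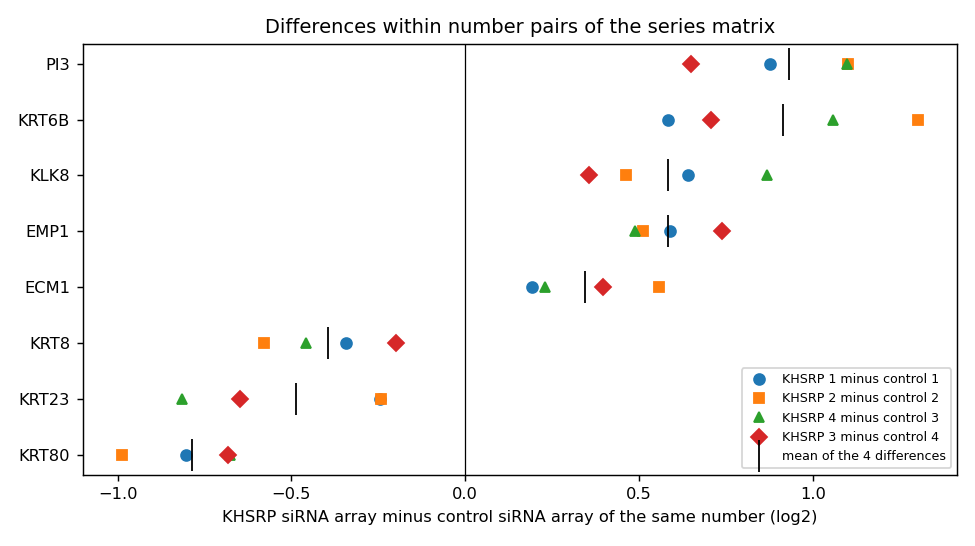
Log2 difference (x axis) between the KHSRP siRNA and the control siRNA array of the same series matrix number, 4 pairs drawn as 4 symbols and their mean as a vertical bar, for the 8 genes called with that number as a block (y axis). All 4 differences lie above 0 for PI3, KRT6B, KLK8, EMP1 and ECM1. They lie below 0 for KRT23, KRT80 and the brighter KRT8 probe, which is the one drawn. Those of the second KRT8 probe (0.25 to 0.63, not drawn) lie above 0. A gene is called under this block mainly where its differences agree in sign, so the agreement comes with the choice.

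The probes of KRT8 disagreed. The log2 difference of the brighter one was -0.39 (adjusted p = 0.556, and 0.0199 with the block), and from -0.59 without control siRNA replicate 3 to -0.18 without KHSRP siRNA replicate 4. A second tested probe, designed on a non-coding KRT8 transcript, read 1.42, 1.08, 1.19 and 1.23 on control arrays and 1.82, 1.57, 1.48 and 1.82 on KHSRP siRNA arrays. Its groups did not overlap and it was 0.44 higher (SE 0.13, adjusted p = 0.0934, and 0.0140 with the block), so no direction is given for the gene. The array order of this second probe was neither that of KRT5 nor the opposite.

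Cornified envelope genes were described on the probe with the highest mean. SPRR1B read -2.05, -3.37, -2.05 and -3.24 on control arrays and -1.88, -3.06, -3.66 and -1.91 on KHSRP siRNA arrays, the order of KRT5. SPRR2A ranged 16.6-fold among controls (0.57, -0.99, 1.01 and -3.04) and 6.59-fold with KHSRP siRNA (-0.77, -1.53, -2.93 and -0.21). SPRR2D and SPRR1A had the order of KRT5 over 1.92-fold and 1.19-fold among controls and 1.54-fold and 1.502-fold with KHSRP siRNA. The untested second probes of these genes varied more, from -3.96 to 0.66 for SPRR2D and from -5.52 to -1.81 for SPRR1A.

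TGM1, the transglutaminase of the keratinocyte membrane, read -2.52, -2.15, -2.20 and -2.01 on control arrays and -1.70, -2.26, -1.92 and -1.52 on KHSRP siRNA arrays (0.37, SE 0.18, adjusted p = 0.330). Among the protease inhibitors, CSTA (cystatin A, an envelope precursor) differed by 0.12 (SE 0.26) and CSTB by -0.050 (SE 0.094). CNFN (cornifelin) differed by -0.061 (SE 0.20). None of these 4 passed the test with or without the block.

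Some of these genes are close copies of each other (KRT6A, KRT6B and KRT6C, KRT14, KRT16 and KRT17, SPRR1A and SPRR1B, SPRR2A and SPRR2D, SERPINB3 and SERPINB4). A probe for one may also bind its copies, and probe sequences were not used here, so their likeness is uncertain as evidence of separate genes.

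Gene position was set beside the order of arrays without a test. On chromosome 1, all tested genes had the order of KRT5, namely ECM1, SPRR1A, SPRR1B, SPRR2D, SPRR2A, S100A8, S100A2 and S100A14. On chromosome 12, KRT6B, KRT6C, KRT6A and KRT5 are neighbours and had 1 order, while the neighbours KRT8 and KRT18 had the opposite one. On chromosome 17, KRT19 lies between KRT15 and KRT14 and was opposite to both. The tested kallikreins, on chromosome 19, shared the opposite order. Of the 14 tested genes with a promoter sequence, 5 of 6 with the searched motif had the order of KRT5, the exception being EMP1. Without the motif it was 3 of 8, KRT5 itself among them, which has its own order by definition. The 5 all lie on chromosome 1, and this difference was not tested.

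Other genes of the pathway were read from a wider list of 57 squamous genes, of which 19 passed the filter. PPL (periplakin, a plakin of the envelope) was called higher, reading -0.58, -0.47, -0.35 and -0.60 on control arrays and 0.51, 0.58, -0.0027 and 0.90 on KHSRP siRNA arrays (log2 fold change 0.999, SE 0.19, limma adjusted p = 0.0196). CALML3, a calmodulin-like protein of epithelia, was called lower, reading -0.78, -0.70, -0.70 and -0.85, then -1.66, -2.12, -1.54 and -1.26 (-0.89, SE 0.18, adjusted p = 0.0255). PPL and CALML3 were the only genes of the 19 called, beside 5.54% of all tested probes. They were also the only ones whose groups did not overlap, beside 14.8% of all tested probes. Neither had the order of KRT5. PPL was called in 13 of 20 alternative settings and CALML3 in 10 of 20, and normexp background correction gave 0.61 for PPL (adjusted p = 0.0241) and -0.32 for CALML3 (adjusted p = 0.158). The call of PPL was lost without control siRNA replicate 1, 2 or 4 or KHSRP siRNA replicate 1 or 2 (adjusted p = 0.0586 to 0.0697), and that of CALML3 without any 1 of the 4 control replicates or KHSRP siRNA replicate 1 or 3 (adjusted p = 0.0554 to 0.0804).

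With the series matrix numbers as a block, 11 of these 19 were called, 6 higher and 5 lower, beside 30.1% of all tested probes (14.8% higher and 15.3% lower). The order of KRT5 was found in 8 of the 19 and the opposite in 5, beside 17.3% and 24.6% of all tested probes. Of 26 other keratins, mostly of hair and inner root sheath, 6 passed the filter and 0 were called, with 0 at an unadjusted p under 0.05 and 3 lower with the block, against that background of 15.3% (KRT31, KRT32 and KRT83).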

How the data were processed

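Messenger RNA of KYSE850 cells was hybridised to 8 one-colour Agilent arrays, 4 with control siRNA and 4 with KHSRP siRNA, grouped by the labels. The authors scanned the arrays, and the deposited scanner values are linear fluorescence intensity per spot, background-subtracted and detrended by Agilent Feature Extraction (11.5.1.1 in the headers, 12.6 in the submitters' processing notes). The authors also deposited a series matrix of log2 values, whose column medians ran from -0.25 to 0.22. Its columns followed the scanner arrays at r = 1.00, except that those of KHSRP siRNA arrays 3 and 4 followed each other's, which leaves the groups as they are. Numbers in the text are those of the scanner files. The gene-centring of the matrix is not stated in the sources used here, and the matrix served as an alternative only.

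Control spots and outlier-flagged spots (265 to 346 an array) were left out. Signals were log2-transformed, averaged per probe and set relative to the 75th percentile of the array. A probe was tested where a share of 0.5 or more of its spots stood well above background on all 4 arrays of a group. The tested probe with the highest mean stood for a gene. Probes were named through their accessions with RefSeq (GRCh38.p14), which gave a symbol for 27241 of 42405 probes (64.2%). No genome coordinates were taken for probes. The number of arrays limits the precision.

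The comparison used two-sided moderated tests from limma (version 3.58.1, R 4.3.3) without a block, adjusted by Benjamini-Hochberg over the 18761 probes at a threshold of 0.05, and the code was tested on simulated data. Other steps used Python 3.11.15. Deviations from the group means correlated between arrays of the same number at 0.43 to 0.84 by the series matrix numbers. By the scanner file numbers the range was -0.67 to 0.52. Arrays of unlike number in both also deviated together, as control 2 with KHSRP siRNA 3 (0.42, beside 0.43 with KHSRP siRNA 2). The correlations therefore do not establish pairs. The block by series matrix numbers was chosen from the same values it was fitted to. Values with that block are given where they change a call.

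The genes, lists, roles and rules were chosen with earlier results of these data known. All 50 genes were accounted for, with full statistics for those called or not overlapping, and with counts for other lists beside at most 3 called genes each. Alternatives covered scaling, normexp background correction (offset 50), the series matrix values, the filter, blocks, the variance model, the methods' t-test, the choice of probe for a gene, and leaving out each array. The normexp setting started from the median spot signals and kept outlier-flagged spots.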

Additional observations from a re-analysis of the deposited data

Results flagged for a closer look

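Of 74 sets of 4 arrays of 1 gene or probe checked for a value apart from the others, 1 stood out, and chance gives about 1 in 20. On control siRNA replicate 3, KRT13, the suprabasal keratin of the esophagus, read -1.73, and the other control arrays read -2.71, -2.76 and -2.74, so that the gap to the nearest was 0.955 of the range. That array was also among the high ones for KRT5 and KRT14, as was control siRNA replicate 1, which read -2.71 for KRT13.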

How the results depend on the processing

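Of the 33 tested genes 1 (EMP1) was called, and 0 were called when arrays were scaled to the median, when dim probes were not filtered, and under the replicate block by the scanner file numbers, while 8 were called under the replicate block by the series matrix numbers. Leaving out 1 array gave 0 to 1, with 0 without control siRNA replicate 1. In the other settings the count was 1. EMP1 was higher in all 20 alternatives and called in 16. The median change of the group ran from -0.11 to 0.21, moving from 0.016 by less than the 0.21 SD between arrays of the genes' median level. KHSRP was called in 20 of 20 (-3.46 to -3.27). KRT23 ran from -0.98 to 0.057 as single arrays were left out, and was positive without control siRNA replicate 4 (0.057) and without KHSRP siRNA replicate 4 (0.041). Between slides 0 genes were called in every setting run. Calls over all probes numbered 1039, and 570 with median scaling, 319 with no filter, 156 and 5644 with the block by scanner and by series matrix numbers. The causes of these differences were not tested. Signals near background limit what can be said of the 17 untested genes.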
